A study of Homo sapiens with 2 samples.

Results

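The carriers described here were the 59 protein-coding genes of 7 solute carrier (SLC) families that move amino acids across membranes, taken by gene name from a table of 58735 genes, of which 19951 were protein-coding. The families were SLC1A with 7 genes, SLC3A with 2, SLC6A with 19, SLC7A with 13, SLC36A with 4, SLC38A with 11 and SLC43A with 3. Some members carry other substrates, such as creatine, monoamines or purine bases, and the SLC3A genes encode heavy chains, but all are called carriers here. Sums over the 59 genes include them. The name pattern also matched SLC7A6OS, a gene on the opposite strand of SLC7A6 that encodes no carrier, and it was left out of the counts. The RNA came from SF-539, a human glioblastoma line grown in DMEM with 10% serum, in 1 library from cells infected with a control lentivirus (pGIPZ-CTRL, shControl) and 1 from cells infected with a lentivirus carrying a short hairpin RNA against FKBP9 (shFKBP9). Both were stable clones selected with puromycin, at passages 15 to 18, and the labels do not say which hairpin or how many clones were used.

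With 1 library per condition, no difference had a replicate check, and no p-value is given. Levels are in FPKM, the number of fragments scaled to gene length and library depth, and each difference is a log2 ratio of FPKM plus 0.1, shFKBP9 over shControl. Each ratio is given with an exact 95% interval of the fragment ratio itself, which covers counting error alone and compares the 2 libraries, not the conditions. A gene is called higher or lower in shFKBP9 below where that interval excluded 0 and the libraries together held at least 10 fragments, and 2-fold higher or lower where the log2 ratio passed 1 or -1 with at least 1 FPKM in either library.

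The libraries held 18116873 fragments in shControl and 17158514 in shFKBP9. FKBP9, the target of the hairpin and a peptidyl-prolyl isomerase of the endoplasmic reticulum, had 49.8 FPKM in shControl and 4.68 in shFKBP9, a log2 ratio of -3.38 (interval -3.56 to -3.27), in the direction of the labels. The labels call the cells epithelial glioma cells from brain. Of the epithelial markers, CDH1 had 0 and 1 fragments, EPCAM had 0.241 and 0.324 FPKM, KRT18 had 0.154 and 0.0905, and KRT8 had 1.28 and 1.09. The astrocyte marker GFAP had 0.196 and 0.139 FPKM and AQP4 was at 0 in both, whereas the mesenchymal genes VIM, with 277 and 295 FPKM, and COL1A1, with 837 and 884 FPKM, were abundant. In such bulk RNA, fewer cells that express a gene and less of its RNA per cell cannot be told apart.

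Amino acid carriers supply cells with substrates for protein, nucleotide and glutathione synthesis and set the amino acid levels that the kinase complex mTORC1 reads. Some take up an amino acid together with sodium or protons, as SLC1A, SLC6A, SLC36A and much of SLC38A do, whereas many SLC7A carriers are light chains that exchange one amino acid for another and reach the cell surface only when linked to a heavy chain of the SLC3A family. In the brain, SLC1A and SLC6A carriers clear glutamate, glycine and GABA released by neurons. SLC7A11, the light chain of system xc-, brings in cystine in exchange for glutamate, and the cystine is reduced to the cysteine needed for glutathione.

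Of the 59 carriers, 26 had at least 1 FPKM in either library, and 15 had no fragment in either. Neutral amino acid carriers led the order of levels. SLC38A2, a sodium-coupled carrier of small neutral amino acids, had 55.0 FPKM in shControl and 54.9 in shFKBP9. SLC1A5, the main exchanger of glutamine at the cell surface, had 49.9 and 53.3. SLC7A1, the cationic carrier of arginine and lysine, had 36.6 and 32.4. These 3 together with SLC43A3 and SLC3A2 held 58.1% of the summed FPKM of all 59 carriers in shControl. SLC7A11 was far below them, in place 26 of the members in shControl and 25 in shFKBP9. The summed FPKM of the carriers was 348 in shControl and 358 in shFKBP9, 1.03-fold.

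**Figure D1:**
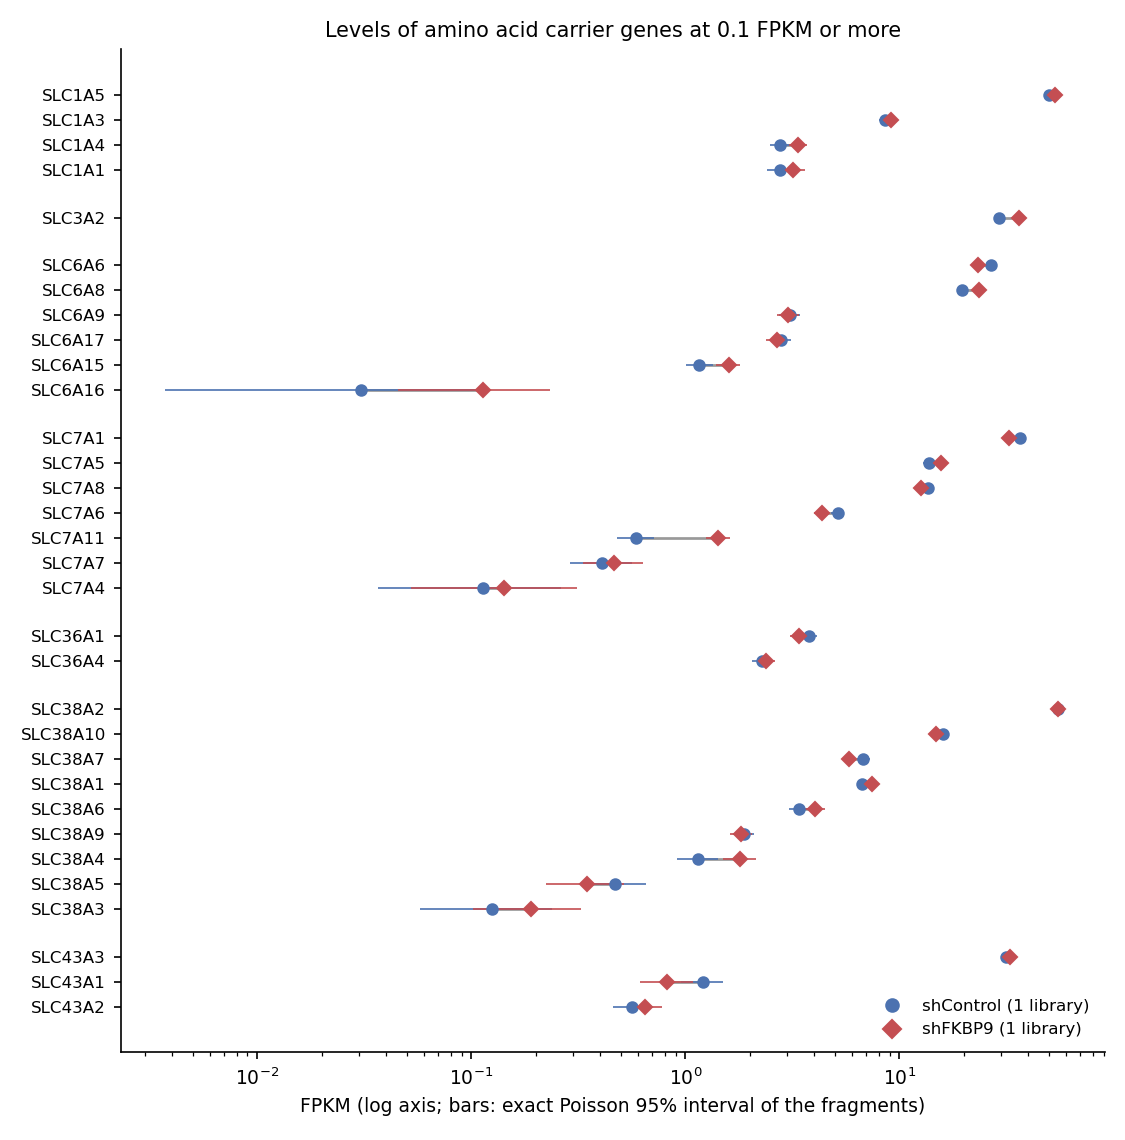
FPKM (log axis) of each carrier that reached 0.1 FPKM in either library, grouped by family, in shControl (circles) and shFKBP9 (diamonds), 1 library each, with exact Poisson 95% intervals of the fragment counts as bars. The levels span up to 55.0 FPKM (SLC38A2), and the points of the 2 libraries lie close together for most carriers. SLC6A16, with only 2 and 7 fragments, lies furthest apart, and SLC7A11 next.

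SLC7A11 was the 1 carrier past the 2-fold rule. The shControl library held 103 of its fragments, or 0.590 FPKM (exact Poisson interval 0.481 to 0.715), against 236 fragments and 1.43 FPKM (1.25 to 1.62) in shFKBP9. The 2 intervals did not overlap, and the log2 ratio was 1.14 (interval 0.93 to 1.62), a fragment-based fold of 2.42 (1.91 to 3.08). The gene (ENSG00000151012) lies on the minus strand of chromosome 4, 138164097 to 138242349 in hg38, and its canonical transcript has 12 exons. SLC7A11 is in the study's own list of genes raised in this pair of libraries, so its direction is not independent evidence. Its level stayed low, and the call depends on that: with 1 instead of 0.1 added to FPKM the log2 ratio was 0.61, and a rule of at least 1 FPKM in both libraries leaves the gene out. Its antisense neighbour SLC7A11-AS1 had 0 fragments in shControl and 2 in shFKBP9.

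The 2-fold rule called 1 of 26 carriers higher (3.85%), against 0.213% of 10346 protein-coding genes, and 0 of 26 lower, against 0.193%. SLC7A11 reached 1 FPKM in shFKBP9 alone, the library where it was higher, so nothing about the carriers is read from these shares. By its log2 ratio, SLC7A11 held place 15 of those 10346 genes, counted from the highest. That place rests on the same filter, and nothing is read from it either. By the counting interval, 10 of the 32 carriers with enough fragments were higher in shFKBP9 (31.2%), against 16.9% of 13040 protein-coding genes, and 7 were lower (21.9%), against 20.1%. The share called grows with depth, and the tested carriers had a median of 774 fragments in both libraries together, against 933 for the protein-coding genes. Among genes with at least 1 FPKM and 500 fragments, 7 of 21 carriers were higher (33.3%) against 22.2% of 8321 genes, and 6 were lower (28.6%) against 26.1%. The median log2 ratio of the 26 carriers was 0.06, with 14 above 0 and 12 below, beside -0.02 over the protein-coding genes. The middle 50% of the carriers, between the 25 and 75 percentiles, ran from -0.12 to 0.23, and that of the protein-coding genes ran from -0.15 to 0.12.

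**Figure D2:**
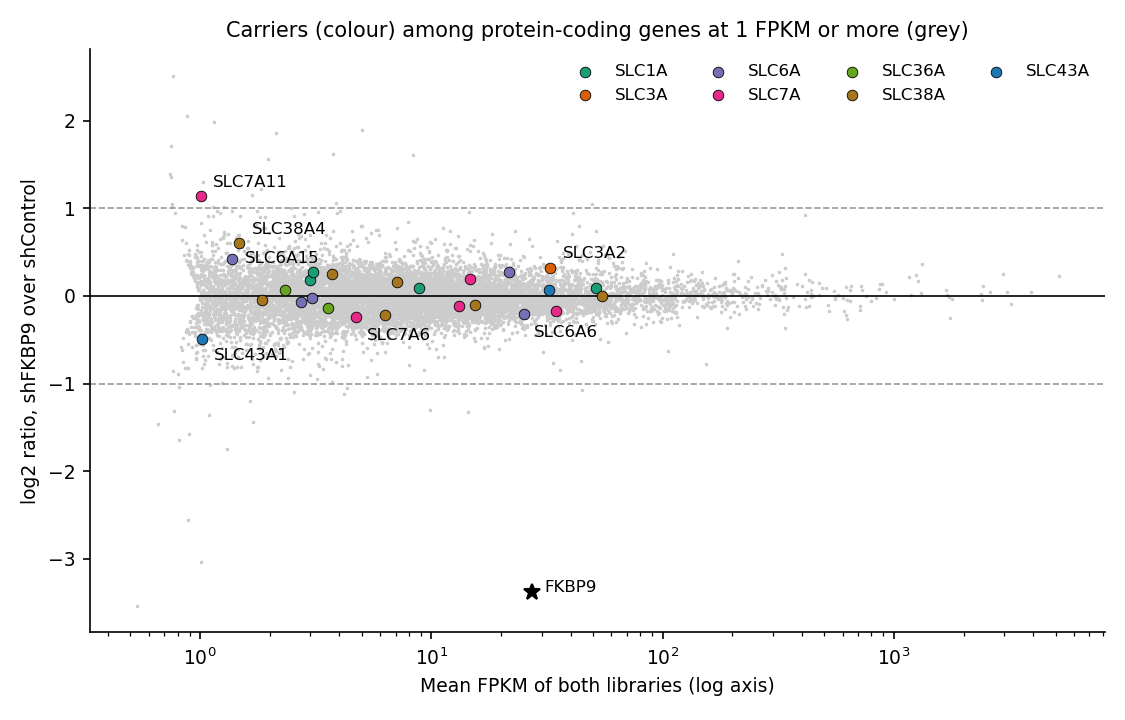
Log2 ratio (shFKBP9 over shControl) against mean FPKM of both libraries (log axis) for protein-coding genes that reached 1 FPKM, with carriers coloured by family, FKBP9 as a star and dashed lines at 2-fold. Apart from SLC7A11 at 1.14, the carriers lie between the dashed lines, among the other genes of like level, and FKBP9 lies at -3.38.

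The heteromeric carriers comprised the heavy chains and their light chains. SLC3A2 (CD98 or 4F2hc), the heavy chain of most light chains measured here, was the most abundant carrier among those called higher after SLC1A5. SLC3A2 (chromosome 11, 62856102 to 62888875, plus strand) had 2733 fragments and 29.2 FPKM in shControl against 3230 fragments and 36.3 FPKM in shFKBP9, a log2 ratio of 0.32 (0.25 to 0.39). Of its light chains, SLC7A5 (LAT1), which exchanges glutamine for leucine and other large neutral amino acids, had 13.7 and 15.7 FPKM, a log2 ratio of 0.20 (0.08 to 0.31). Its pseudogene SLC7A5P1 had 4 and 6 fragments, and SLC7A5 summed with its pseudogenes also gave 0.20.

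Other light chains were lower. SLC7A8 (LAT2), with a broader range of neutral substrates, had 13.7 and 12.6 FPKM, a log2 ratio of -0.12 (-0.23 to -0.01), and was not called under median ratio scaling or with a 99% interval. SLC7A6 (y+LAT2), which exchanges cationic for neutral amino acids, had 5.15 and 4.33 FPKM, a log2 ratio of -0.24 (-0.41 to -0.09). SLC7A6 shares 17321 bases of the opposite strand with SLC7A6OS, which had 2.47 and 2.04 FPKM and a log2 ratio of -0.27 (-0.56 to 0.01), and the kit named in the labels does not mark strand, so reads of the pair cannot be told apart where they overlap. SLC7A7 (y+LAT1), the relative of SLC7A6 found in gut and kidney, had 0.409 and 0.465 FPKM, and its interval included 0 (-0.48 to 0.86).

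Set against each other, the light chains summed to 33.5 FPKM in shControl and 34.5 in shFKBP9, while SLC3A2 went from 29.2 to 36.3, so the ratio of light chains to heavy chain was 1.15 and 0.950. The share of SLC7A11 among the light chains was 1.76% in shControl and 4.13% in shFKBP9. SLC7A5 held 40.9% and 45.5%, SLC7A8 held 40.8% and 36.4%, and SLC7A6 held 15.3% and 12.5%. In both libraries LAT1 and LAT2 thus made up most of the light chain RNA. These ratios rest on the gene lengths used for FPKM: SLC3A2 was given 5178 bases, whereas its canonical transcript has 1885, and the transcripts in use in these cells were not resolved. The remaining heteromeric chains were close to absent. SLC3A1 (rBAT), the heavy chain of kidney, had 0 and 1 fragments, and its partner SLC7A9 had 1 and 0. SLC7A10 and SLC7A13 had none.

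**Figure D3:**
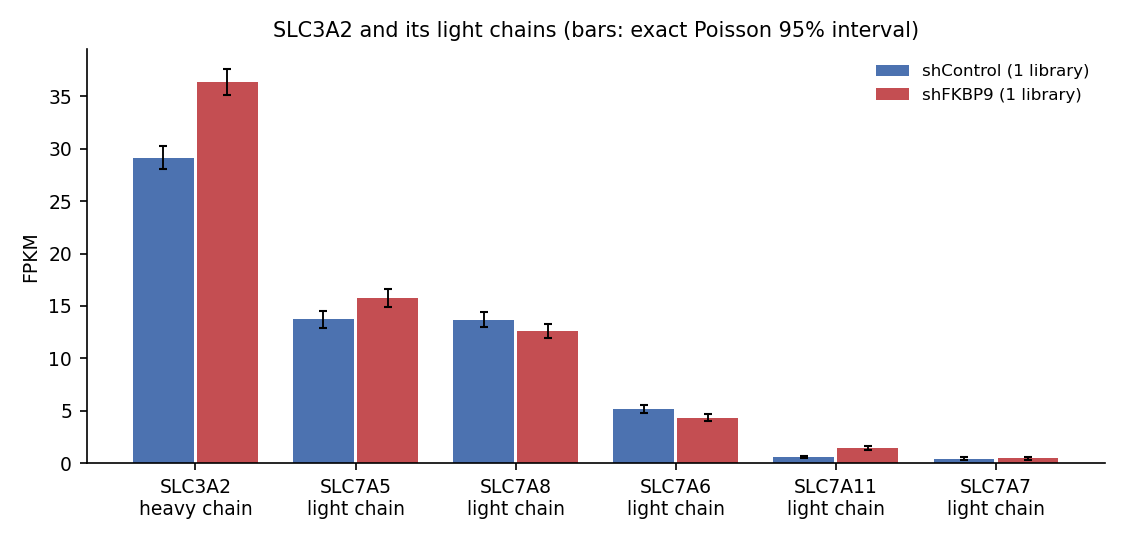
FPKM of the heavy chain SLC3A2 and its light chains in shControl and shFKBP9, 1 library each, with exact Poisson 95% intervals as error bars. SLC3A2, SLC7A5 and SLC7A11 are higher in shFKBP9, and SLC7A8 and SLC7A6 are lower, SLC7A8 not under median ratio scaling.

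The SLC7A family also holds the cationic carriers, which need no heavy chain. SLC7A1 (CAT1) had 5103 and 4283 fragments, 36.6 and 32.4 FPKM, a log2 ratio of -0.18 (-0.23 to -0.12). It was the most abundant carrier called lower. SLC7A2 had 1 and 0 fragments, SLC7A3 had none, and the related SLC7A4 and SLC7A14 had 5 and 6 and 1 and 1. Across the SLC7A family the summed FPKM was 70.3 in shControl and 67.1 in shFKBP9, with 2 genes higher, 3 lower and 2 with an interval that included 0, against 16.9% higher and 20.1% lower over protein-coding genes, or 22.2% and 26.1% of those with at least 500 fragments. The difference between a large ratio and a large amount shows in this family: shFKBP9 minus shControl was 0.835 FPKM for SLC7A11 and -4.21 FPKM for SLC7A1.

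In the SLC1A family, the neutral amino acid exchangers were both higher in shFKBP9. SLC1A5 (ASCT2) had 3012 fragments in shControl and 3051 in the shallower shFKBP9 library, a log2 ratio of 0.10 (0.02 to 0.17). Reads of SLC1A5 cannot be told apart by strand from those of genes that overlap it, so its count is uncertain. SLC1A4 (ASCT1), an exchanger of alanine, serine and cysteine, had 2.78 and 3.37 FPKM, a log2 ratio of 0.27 (0.07 to 0.49). Both genes had at least 500 fragments, and of protein-coding genes that deep 22.2% were higher.

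The glutamate carriers of SLC1A had intervals that included 0. SLC1A3 (EAAT1 or GLAST), a glutamate carrier of astrocytes, had 8.60 and 9.14 FPKM, a log2 ratio of 0.09 (-0.04 to 0.22). SLC1A1 (EAAT3), the glutamate and cysteine carrier of neurons and kidney, had 2.78 and 3.18 FPKM, with 0.19 (-0.09 to 0.48). SLC1A2 (EAAT2 or GLT-1), which clears most glutamate in the forebrain, had 5 and 12 fragments, SLC1A7 had 0 and 1, and SLC1A6 had none. SLC1A3 thus had the highest level of the glutamate carriers in both libraries. The family summed to 64.1 FPKM in shControl and 69.1 in shFKBP9, with a median log2 ratio of 0.14.

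The SLC38A family holds the sodium-coupled neutral amino acid carriers, and its summed FPKM was 91.5 in shControl and 91.3 in shFKBP9, the highest sum of the 7 families. SLC38A2 (SNAT2), which made up more than any other member, had 6569 and 6218 fragments, a log2 ratio of -0.00 (-0.05 to 0.05). Its value is one of the most tightly bounded here, and its sign changes with the scaling of the libraries. SLC38A1 (SNAT1), a glutamine carrier of the same system A, had 6.70 and 7.49 FPKM, a log2 ratio of 0.16 (0.05 to 0.28). SLC38A4 (SNAT4), the system A carrier typical of liver and placenta, had 86 and 128 fragments, 1.15 and 1.80 FPKM, and a log2 ratio of 0.61 (0.25 to 1.06), next to SLC7A11 the highest ratio among carriers with at least 1 FPKM.

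The system A genes are neighbours on chromosome 12, with 88.2 kb between SLC38A1 and SLC38A2 and 391.9 kb between SLC38A2 and SLC38A4. The interval of SLC38A4 did not overlap that of SLC38A2, whereas that of SLC38A1 overlapped both. A non-coding gene, AC008014.1, overlaps SLC38A4 on the opposite strand and had 35 fragments in shControl and 31 in shFKBP9.

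Among the other SLC38A members, those called did not share a direction. SLC38A7 (SNAT7), which exports glutamine and asparagine from lysosomes, had 6.79 and 5.83 FPKM, a log2 ratio of -0.22 (-0.36 to -0.07). SLC38A9, the lysosomal arginine sensor of mTORC1, had 1.88 and 1.82 FPKM, and its interval included 0 (-0.28 to 0.20). SLC38A10 had 16.1 and 14.9 FPKM, a log2 ratio of -0.11 (-0.19 to -0.02). SLC38A6 had 3.40 and 4.05 FPKM, a log2 ratio of 0.25 (0.03 to 0.48). With a 99% interval, neither SLC38A10 nor SLC38A6 was called. The system N carriers, which move glutamine and histidine in exchange for protons, were low, with 34 and 24 fragments for SLC38A5 and 9 and 13 for SLC38A3, and both intervals included 0. SLC38A11 had 0 and 1 fragments and SLC38A8 none.

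**Figure D4:**
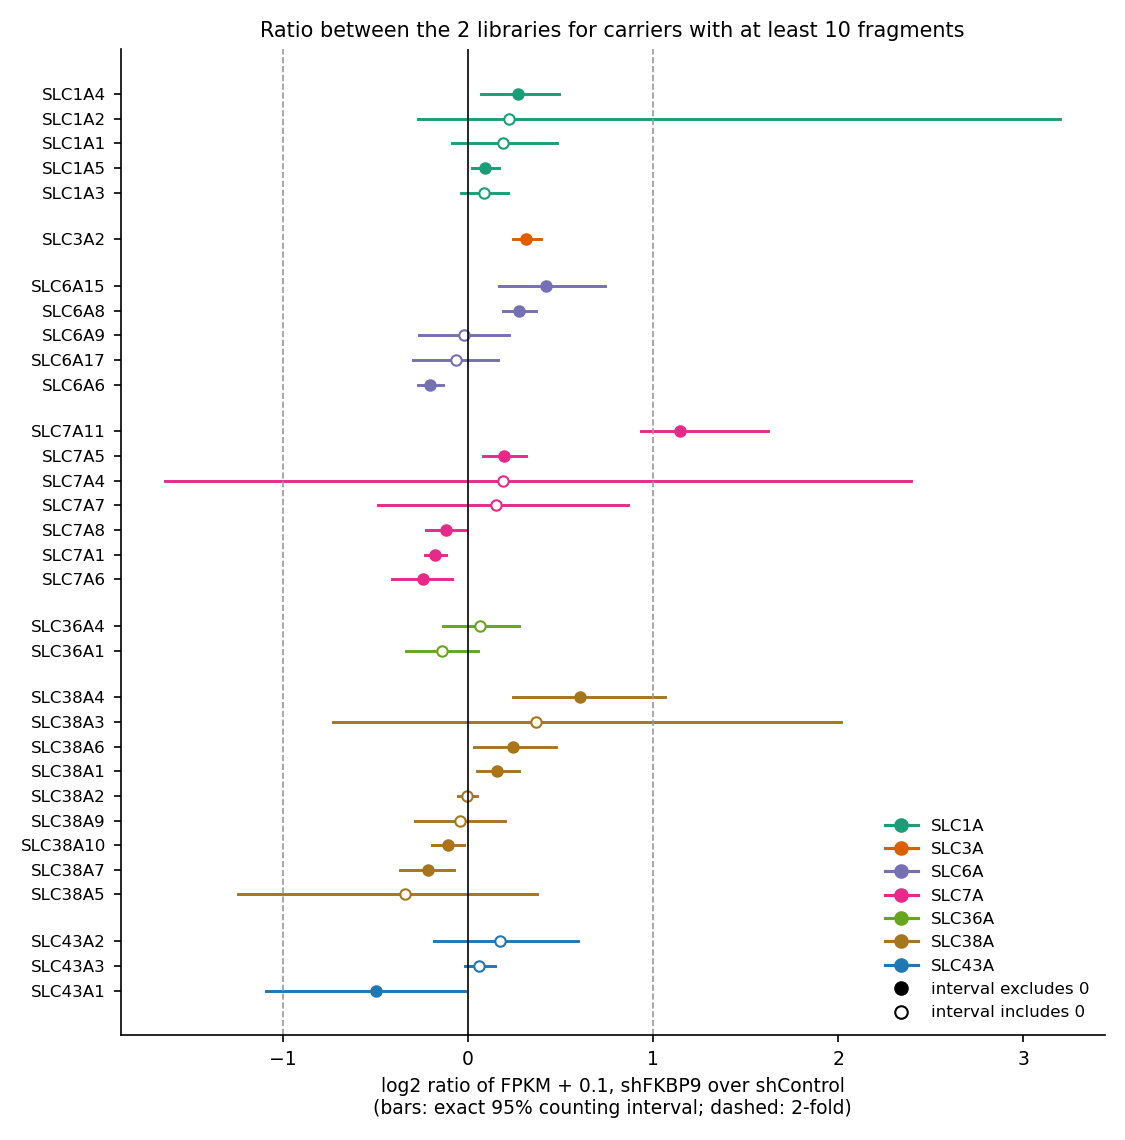
Log2 ratio (shFKBP9 over shControl) of each carrier with at least 10 fragments in both libraries together, grouped by family, with exact 95% intervals of the fragment ratio (counting error alone); the points carry 0.1 added to FPKM, so they lie nearer to 0 than the middle of the interval for low genes. Intervals exclude 0 on the higher side for 10 carriers and on the lower side for 7, and SLC7A11 is the one point above 1.

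The SLC6A family holds the sodium- and chloride-coupled carriers of neurotransmitters, osmolytes and amino acids, and 2 of its 19 members accounted for most of its RNA. SLC6A6 (TauT), the taurine carrier, had 4020 and 3307 fragments, 26.9 and 23.3 FPKM, a log2 ratio of -0.20 (-0.27 to -0.14). SLC6A8, the creatine carrier, had 1944 and 2232 fragments, 19.5 and 23.6 FPKM, a log2 ratio of 0.27 (0.19 to 0.37). These osmolyte and energy substrate carriers thus lay on opposite sides of 0 with intervals that did not overlap, and the family sum was 53.6 FPKM in shControl and 54.5 in shFKBP9. SLC6A8 has near-identical copies elsewhere in the genome, so its count is uncertain where reads could be split between copies.

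The amino acid carriers of SLC6A were lower in level. SLC6A15 (B0AT2), a carrier of branched-chain amino acids and proline, had 185 and 240 fragments, 1.16 and 1.59 FPKM, and a log2 ratio of 0.42 (0.17 to 0.74). SLC6A9 (GlyT1), the glycine carrier of glia, had 3.07 and 3.03 FPKM, and the vesicular carrier SLC6A17 had 2.80 and 2.67, both with intervals that included 0. SLC6A9 overlaps CCDC24 on the opposite strand, which had 175 and 147 fragments.

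The other 14 SLC6A members were at or near 0. Those without a fragment included the GABA carrier SLC6A11, the noradrenaline and dopamine carriers SLC6A2 and SLC6A3, the neuronal glycine carrier SLC6A5, and SLC6A14, SLC6A18 and SLC6A19, which serve epithelia. SLC6A12, the betaine carrier, had 6 fragments in shControl and none in the shFKBP9 library, with the upper bound of its log2 interval at -0.16, but it was under the minimum of 10 fragments and was not called. SLC6A16 had 2 and 7 fragments, a fold of 3.69 with a counting interval from 0.704 to 36.5. SLC6A20 had 6 and 1, SLC6A7 had 2 and 4, SLC6A13 had 1 and 0, and SLC6A4, the serotonin carrier, had 0 and 1.

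The families SLC36A and SLC43A are small. SLC36A1 (PAT1), which exports small amino acids from lysosomes with protons, had 3.77 and 3.41 FPKM, with -0.14 (-0.33 to 0.05). SLC36A4 (PAT4), a carrier of proline and tryptophan, had 2.28 and 2.39, with 0.07 (-0.13 to 0.28). The intervals of both included 0, and SLC36A2 and SLC36A3, next to SLC36A1 on chromosome 5, had no fragment. SLC43A3, which carries purine bases rather than amino acids, was the abundant member of its family with 31.4 and 32.9 FPKM, and its interval included 0 (-0.01 to 0.14). SLC43A1 (LAT3), a carrier of branched-chain amino acids, had 77 and 50 fragments, 1.20 and 0.825 FPKM, and a log2 ratio of -0.50 (-1.09 to -0.01). It was the lowest ratio among carriers with at least 1 FPKM in either library. SLC43A1 reached 1 FPKM in shControl alone, the library where it was higher, so that place rests on the filter. It was not called under median ratio scaling or with a 99% interval. SLC43A2 (LAT4), its close relative, had 0.562 and 0.648 FPKM, with an interval from -0.18 to 0.60.

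For the 15 carriers without a fragment, a count of 0 still allows up to 3 fragments per library, which is 0.00907 to 0.0911 FPKM in shControl and 0.00956 to 0.0961 in shFKBP9, by gene length. Another 12 carriers had 1 to 9 fragments in both libraries together, under the minimum for a call, and all of their intervals except that of SLC6A12 included 0.

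Several carriers are known targets of ATF4, the transcription factor that is translated when cells lack amino acids or the endoplasmic reticulum is stressed. ATF4 itself had 92.7 FPKM in shControl and 130 in shFKBP9, a log2 ratio of 0.48 (0.43 to 0.54). Of the 9 carriers listed as its targets, 5 were higher (SLC7A11, SLC3A2, SLC1A4, SLC7A5 and SLC1A5), 1 was lower (SLC7A1), SLC38A2 and SLC6A9 had intervals that included 0, and SLC7A3 had no fragment. Over all protein-coding genes, 16.9% were higher and 20.1% lower, or 22.2% and 26.1% of those with at least 500 fragments. The targets' median log2 ratio was 0.15 over the 8 with at least 1 FPKM. The other 50 carriers had 5 higher, 6 lower and 13 with an interval that included 0. Their median was 0.01 over the 18 with at least 1 FPKM. The groups differed in depth, with 19334 shControl fragments over the 9 targets and 18617 over the other 50. The share called grows with depth. SLC7A11 entered the targets' median through shFKBP9 alone, and the list was chosen with earlier results known. Nothing is read from the contrast between the groups.

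Promoter windows from RefSeq (GRCh38.p14, 250 bases before to 50 after each start) were found for 44 of the 59 carriers, 66 windows in all. Members without a window included SLC1A2, SLC38A3, SLC3A1, SLC43A3, SLC6A2, SLC6A3, SLC6A6, SLC6A12, SLC6A15, SLC7A2, SLC7A3, SLC7A4, SLC7A11 and SLC7A13. The C/EBP-ATF composite element, which ATF4 binds with a C/EBP partner and which is spelled here as TGATGNAA on either strand, was present in 6 of the 66 windows (9.09%), against 2.68% of 21021 windows of protein-coding genes and 3.62% of all 35116 windows. The windows of a gene can overlap, and a match is a description of letters, not a site. The matches are shown because 4 of the 6 genes (SLC1A4, SLC1A5, SLC3A2 and SLC7A1) are also on the ATF4 target list. Each is written along the strand of its gene, with the match in capitals.
SLC1A4: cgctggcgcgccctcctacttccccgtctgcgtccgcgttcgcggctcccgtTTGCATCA
SLC1A5: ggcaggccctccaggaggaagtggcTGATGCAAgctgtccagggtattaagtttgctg
SLC3A2: aggactccTTACATCAgctcc
SLC7A1: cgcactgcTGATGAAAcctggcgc
SLC38A1: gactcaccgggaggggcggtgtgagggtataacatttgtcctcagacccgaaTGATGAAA
SLC1A3: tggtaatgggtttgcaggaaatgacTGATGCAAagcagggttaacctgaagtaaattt

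These stretches lie at chr2:64989340-64989399 (plus strand) for SLC1A4, chr19:46784879-46784936 (minus strand) for SLC1A5 and chr11:62881728-62881748 (plus strand) for SLC3A2. Those of SLC7A1, SLC38A1 and SLC1A3 lie at chr13:29595666-29595689 (minus strand), chr12:46266513-46266572 (minus strand) and chr5:36596343-36596400 (plus strand). The match of SLC1A4 spans its start, from base -7 to base 1, and those of SLC7A1 and SLC3A2 lie after theirs, from base 8 to 15, in the 5′ UTR, and from base 38 to 45. The windows of SLC1A5, SLC3A2, SLC38A1 and SLC1A3 belong to starts other than that of the canonical transcript. Carriers with a match were found on both sides of 0, with SLC1A4 at 0.27, SLC3A2 at 0.32, SLC38A1 at 0.16 and SLC1A5 at 0.10, against SLC7A1 at -0.18, and SLC1A3 had an interval that included 0.

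The antioxidant response element, bound by NRF2 and spelled here as TGACNNNGC on either strand, was present in 7 of the 66 carrier windows (10.6%), against 13.8% of the protein-coding and 13.3% of all windows, and no match overlapped one of the C/EBP-ATF element. The heavy chain SLC3A2 and the light chain SLC7A5, both higher in shFKBP9, each had a match, shown because the pair forms LAT1, with the match in capitals.
SLC3A2: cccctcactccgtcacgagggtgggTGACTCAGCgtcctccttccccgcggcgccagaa
SLC7A5: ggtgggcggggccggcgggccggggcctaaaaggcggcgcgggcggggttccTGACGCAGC

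The stretch of SLC3A2 lies at chr11:62881637-62881695 (plus strand), with the match from base -37 to -29, and that of SLC7A5 at chr16:87869501-87869561 (minus strand), with the match from base -2 to 7. The other carriers with a match were SLC1A3, SLC1A5, SLC7A1, SLC7A6 and SLC7A7, of which SLC7A1 and SLC7A6 were lower in shFKBP9.

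Genes that use what the carriers bring in were described from lists of the same pathways. Of 21 cystine and glutathione genes, all with enough fragments to be tested, 5 were higher and 2 lower, against 16.9% and 20.1% of protein-coding genes, or 22.2% and 26.1% of those with at least 500 fragments, with a median log2 ratio of 0.04 over the 19 with at least 1 FPKM. Those higher were CHAC1, which degrades glutathione, with 2.07 and 7.92 FPKM and a log2 ratio of 1.89 (1.57 to 2.32), GCLC (0.32) and GCLM (0.23), the subunits of the enzyme that limits glutathione synthesis, NFE2L2 (0.29), which encodes NRF2, and GGT1 (0.51), which splits extracellular glutathione and has near-identical copies that make its count uncertain. On the TPM scale GCLM was not called, and 4 genes were higher and 4 lower. The 2 lower genes were the lipid peroxidase GPX4 (-0.08) and the glutathione conjugate exporter ABCC1 (-0.18). CHAC1 was the only gene of the 5 pathway lists past the 2-fold rule, and it too is on the study's list of raised genes.

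Of 24 genes that sense amino acids for GCN2 and mTORC1, 8 were higher, 3 lower and 13 had intervals that included 0, against the same 16.9% higher and 20.1% lower over protein-coding genes, or 22.2% and 26.1% at 500 fragments or more, with a median of 0.08. The higher ones included ATF4, the leucine sensor SESN2 (0.43) and the Rag GTPases RRAGA (0.28), RRAGB (0.33) and RRAGC (0.28), whereas MTOR itself (-0.33) and its partner RPTOR (-0.13) were lower. On the TPM scale RRAGB and DDIT4 were not called, which left 6 higher. CASTOR2, a relative of the arginine sensor, had -0.82 from 78 and 41 fragments and has a near-identical copy, so its count is uncertain. EIF2AK4, which encodes GCN2, had 7.67 and 7.65 FPKM and an interval that included 0.

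Of 18 enzymes that use the carried amino acids, 14 had enough fragments, and 3 of these were higher and 3 lower, near the 16.9% and 20.1% of protein-coding genes, with a median of 0.02. ASNS, which makes asparagine, had 21 and 38 fragments and a log2 ratio of 0.73 (0.13 to 1.78), ASS1, which uses citrulline and aspartate to make the precursor of arginine, had 0.59, and BCAT1, which starts branched-chain amino acid breakdown, had 0.22. Among the lower ones were the arginase ARG2 (-0.50) and the arginine-forming lyase ASL (-0.17). Under median ratio scaling 5 enzymes were higher and 2 lower. Of 6 partner proteins of the carriers, 4 had enough fragments, with a median of 0.06. CD44 (0.19), which stabilises SLC7A11 at the membrane, and BSG (0.06) were higher and none was lower. All 4 had at least 500 fragments, and of protein-coding genes that deep 22.2% were higher and 26.1% lower.

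The 23 carriers of amino acids in other SLC and related families had the lowest median of the lists, -0.07 over 13 genes, with 0 higher, 6 lower and 11 with intervals that included 0, against 16.9% higher and 20.1% lower over protein-coding genes, or 22.2% and 26.1% of those with at least 500 fragments. The lower ones were the lysosomal cysteine carrier MFSD12 (-0.16) and 5 mitochondrial carriers, among them the aspartate-glutamate carrier SLC25A12 (-0.27), the glutamate carrier SLC25A22 (-0.26) and the branched-chain amino acid carrier SLC25A44 (-0.29). Under median ratio scaling 4 were lower, without SLC25A18 and SLC25A29. The lysosomal cystine exporter CTNS had 7.88 and 7.51 FPKM with an interval from -0.26 to 0.12.

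**Figure D5:**
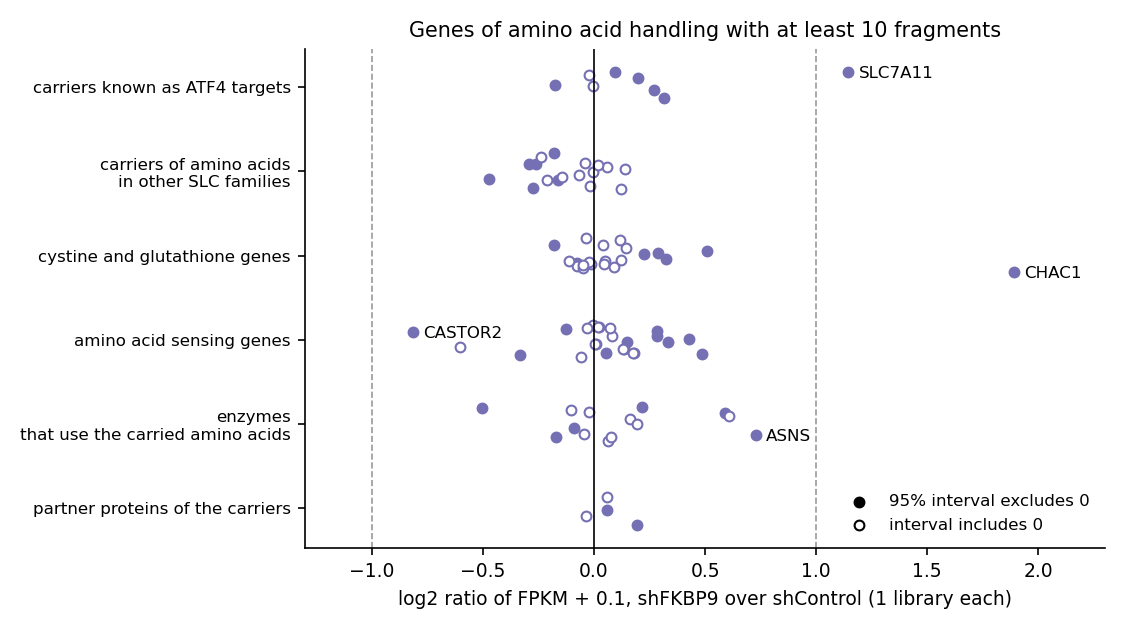
Log2 ratio (shFKBP9 over shControl) of the genes in each list with at least 10 fragments in both libraries together, 1 point per gene, filled where the 95% counting interval excludes 0, with dashed lines at 2-fold. CHAC1 at 1.89 and SLC7A11 at 1.14 stand above the upper line, CASTOR2 at -0.82 is the lowest point, and the other filled points lie on both sides of 0, except those of the carriers in other families, which lie below it, and of the partner proteins, which lie above it.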

How the data were processed

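RNA of 2 SF-539 libraries, 1 per condition, was sequenced. Per the labels, the authors used the NEBNext Ultra RNA kit, HISAT2 2.0.5, featureCounts 1.5.0-p3, edgeR and hg38. The strand setting of the counting is not given in the sources used here. The deposited values were FPKM per gene, with gene lengths that also enter comparisons between genes. FPKM times gene length came out as whole multiples of a step per library (100% of values within 0.001), which gave back the fragments: 1 fragment on 1 kb was 0.0552 FPKM in shControl and 0.0582 in shFKBP9.

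Python 3.11.15, pandas 2.3.3 and scipy 1.17.1 were used. Log2 ratios carried 0.1 added to FPKM. Clopper-Pearson 95% intervals came from the fragments and cover counting error only. They were tested on data simulated with counting error alone, so that test does not bear on spread between replicates. All members with at least 1 FPKM, all of SLC3A and SLC7A, and all members with an interval that excluded 0 were named. The members and lists were chosen with earlier results of these data known. Exon counts came from GENCODE 44 and promoters from RefSeq. Alternatives changed the value added, the minimum level or fragments, the interval and the scaling. Values of some genes are not reported here.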

Additional observations from a re-analysis of the deposited data

How the results depend on the processing

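No paired analysis was possible because each condition had 1 library, and for the same reason no replicate could be left out. SLC7A11, the 1 carrier past the 2-fold rule, was no longer past it with 1 added to FPKM or with at least 1 FPKM required in both libraries (0 carriers each), and its log2 ratio was 0.61 with 1 added, 1.26 with 0.01 added, 1.22 on the TPM scale and 1.16 under median ratio scaling. With a 99% interval, 4 carriers were lower in place of 7, without SLC38A10, SLC7A8 and SLC43A1. No share of protein-coding genes is given at that level, so the 99% counts have no background here. Under median ratio scaling 5 were lower, without SLC7A8 and SLC43A1, and 11 higher, with SLC43A3 added. The number higher ran from 9 to 11 over the alternatives, and the median of the carriers from 0.05 to 0.08. Of 106 alternative values for single carriers, 105 stayed within the counting interval, and the sign changed only for SLC38A2. Before 0.1 is added, median ratio scaling moves each log2 ratio by 0.0167 and TPM by -0.0183, and with 0.1 added the shift differs by level. Depth limits what can be said of the 27 carriers under 10 fragments in both libraries together. The scaling of the list counts was an alternative chosen after seeing the data. Of the 6 gene lists, the ATF4 target count was unchanged under both scalings (5 higher, 1 lower), the partner proteins had 3 higher under median ratio scaling, and the other lists changed as given beside their counts. Over protein-coding genes, 18.9% were higher and 17.9% lower under median ratio scaling, and 14.7% and 22.6% on the TPM scale.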
